A study of Bos taurus with 8 samples.

Results

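The untreated state of cultured bovine retinal glia is described here from 2 of the 8 arrays of a study of HIV-1 proteins: those titled control A and control B, each 1 sample read on 1 Agilent bovine array. All 8 samples carry the cell type muller glia and the source bovine eye ball. The cells were primary cultures grown in DMEM for 18 to 21 days and collected into TRIzol, and every sample is described as 24 h of expression. The arrays used for 1 check only are 3 titled TAT (100 ng/ml HIV-1 TAT, replicates A, B and C) and 3 titled gp120 (60 ng/ml HIV-1 gp120, replicates A, B and C). The treatment text is the same for all samples and names both proteins, so that controls A and B were untreated rests on their titles alone. The extraction text calls the cells astrocytes. Strain, age and the number of animals are not given. Nothing says whether letters A and B mark separate cultures or animals, so any spread between the arrays may be technical.

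Müller glia are the radial glia of the retina. They span it from the vitreous to the photoreceptors, clear glutamate through the transporter SLC1A3 and turn it into glutamine with GLUL, pass potassium and water through KCNJ10 and AQP4, and carry retinaldehyde bound to RLBP1. Injured or cultured glia often change their intermediate filaments, of which VIM and GFAP are the best known. Eye tissue also holds microglia and macrophages, pericytes and smooth muscle of vessels, endothelium, fibroblasts, pigment epithelium and neurons, and each can persist in a primary culture. In RNA of a whole culture, fewer cells of a type and less RNA per cell cannot be told apart.

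A level below is the log2 of the background-subtracted signal of a probe minus the 75th percentile of that array's signals, so 0 is that percentile and a step of 1 is a factor of 2. A probe was called detected on an array when the scanner software flagged it as well above background. Both control arrays were hybridised in the same row of 1 slide and read at the same detector voltage of 431. Scan, where named below, stands for a group of arrays read at the same detector voltage. Of 61657 spots, 59.57% on control A and 61.26% on control B were well above background, and 0 were saturated. The 75th percentile of the signal was 146.9 on control A and 185.9 on control B. A gene was represented by its brightest detected probe. Genes detected on both arrays were ranked by the mean level of the 2 arrays. The top 25% were called high (level of 2.72 or more), the middle 50% middle and the lowest 25% low (level of -1.58 or less). Ranks order probe signals and not amounts of RNA, because probes bind with different strength.

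The 5 probes printed here belong to 5 of the marker genes described below. Each is a 60-base stretch of coding sequence, printed 5′ to 3′ as deposited and in lower case with no base marked. Positions are those of HGSC Btau_3.1, per the file headers, and each lies in 1 unbroken stretch of 60 bases. They cover 2 genes that glia express, 1 gene of retinoid handling and 2 of leukocytes. Only the CD68 probe is also the one that gave its gene's level and rank below. VIM, GLUL, RLBP1 and PTPRC each had a brighter probe, and the levels given for them below come from that probe.
VIM (chr13:31481628-31481687, plus strand): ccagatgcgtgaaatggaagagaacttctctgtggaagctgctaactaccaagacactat
GLUL (chr16:61003818-61003877, minus strand): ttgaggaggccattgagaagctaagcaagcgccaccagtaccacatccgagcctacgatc
RLBP1 (chr21:20467807-20467866, minus strand): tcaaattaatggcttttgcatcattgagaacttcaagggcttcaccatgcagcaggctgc
CD68 (chr19:27817263-27817322, plus strand): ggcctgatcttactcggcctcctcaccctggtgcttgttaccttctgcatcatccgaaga
PTPRC (chr16:76018515-76018574, plus strand): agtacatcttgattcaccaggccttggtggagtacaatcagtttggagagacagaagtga
The VIM probe read 7.22 on control A and 6.72 on control B, and the CD68 probe 6.01 and 6.18. The PTPRC probe read 0.35 and -0.29 and the GLUL probe -0.66 and -0.02. The RLBP1 probe gave -7.14 and -7.31 and was not well above background on either array. Within this set the filament gene and the leukocyte genes were therefore measured, and the coding probe of RLBP1 was not.

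Of 17397 genes with a named probe and a value on both arrays, 12055 (69.3%) were detected on both, 922 on 1 array and 4420 (25.4%) on neither. High genes numbered 3013, which is 17.3% of all, middle genes 6028 and low genes 3014. Levels of detected genes ran from 8.11 to -5.16 with a median of 0.83. Across the 12055 genes the arrays correlated with Pearson r = 0.964 and Spearman rho = 0.967, over genes that share 2 libraries and are not independent. With each array ranked alone, 10733 genes (89.0%) fell in the same class on both, and 0 genes were high on 1 array and low on the other.

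The 8 genes that mark the cells gave a split answer. VIM, the intermediate filament protein of mesenchymal and glial cells, stood at rank 39 with 7.55 on control A and 6.92 on control B. GLUL, the enzyme that makes glutamine from glutamate, was high at 6.34 and 6.09, rank 208. SLC1A3, the glutamate transporter of radial glia, was middle at 2.60 and 2.72, just under the high limit. GFAP, the filament of astrocytes and of reactive Müller glia, was detected on control B alone, at -4.37 against a background reading of -7.23 on control A. RLBP1, the retinaldehyde-binding protein of Müller glia and pigment epithelium, was detected on control A alone, at -3.93. Of the markers of glia, VIM, GLUL and SLC1A3 were thus detected on both arrays, and GFAP and RLBP1 were not. VIM is not particular to glia. The cells are therefore called the control cultures below and not Müller glia. Markers of other cells were high on both arrays. CD68, a lysosomal protein of macrophages, read 6.01 and 6.18 (rank 233). PTPRC, the CD45 phosphatase of leukocytes, read 4.02 and 4.55 (rank 1126). COL1A1, a chain of type I collagen, read 2.97 and 3.60 (rank 2208) with the brightest of 5 detected probes, and the other 4 read between -3.72 and 0.83. The mean level over both arrays with the median probe was -0.04 for COL1A1, 2.11 for PTPRC and 1.36 for GLUL, in place of 3.29, 4.28 and 6.22.

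**Figure D1:**
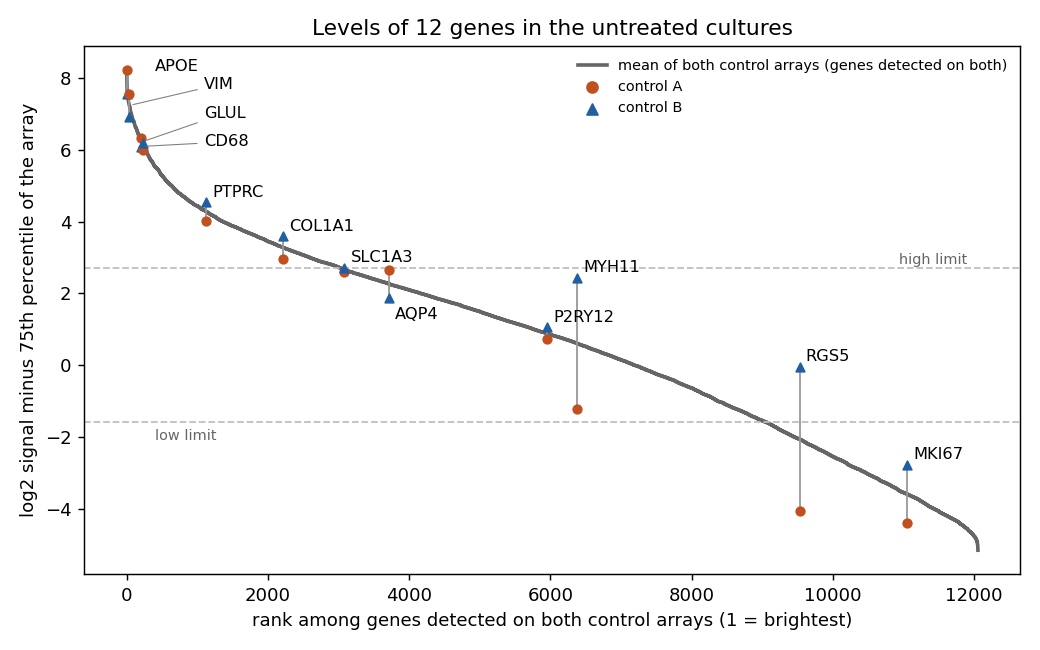
Level (log2 signal minus the 75th percentile of the array) against rank for the 12055 genes detected on both control arrays, as a grey line, with 12 named genes as points for control A (circles) and control B (triangles), joined by a line. VIM, GLUL, CD68, PTPRC and COL1A1 lie above the high limit of 2.72, SLC1A3 and AQP4 just below it, and MYH11 and RGS5 have the widest gaps between the arrays.

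In the list of 30 Müller glia genes, 27 had a probe. Of these, 22 (81.5%) were detected on both arrays and 8 (29.6%) were high, beside 69.3% and 17.3% of all genes. The high members were APOE, VIM, CLU, GLUL, CAV1, DKK3, CCND1 and CD44. APOE, a lipid carrier made by glia and by macrophages, was the third brightest gene at 8.23 on control A and 7.55 on control B. CLU, an extracellular chaperone, read 7.48 and 6.89. VIM, CAV1, CD44 and CCND1 are also expressed by fibroblasts and many dividing cells. Middle members included AQP4, the water channel of glial endfeet, at 2.66 and 1.88, although only 1 of its 6 probes was detected on both arrays. CA2, a carbonic anhydrase, read 2.34 and 2.79. S100B, a calcium-binding protein of glia, read 1.57 and 1.30 with all 3 probes detected.

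Several other members of the Müller list were dim or undetected, while 12 of the 27 were middle. CRYAB at 1.47 and 2.36 and NFIA at 0.09 and 1.53 were also among the middle members. SOX2, a transcription factor of retinal progenitors and Müller glia, was detected on 1 array only, at -5.12 and -5.09. LHX2 was low at -4.11 and -4.64, and PAX6, the retinal transcription factor, was low at -3.93 and -2.59. The potassium channel KCNJ10 was detected with 0 of 4 probes, and the membrane-bound carbonic anhydrase CA14 with 0 of 3. Among 13 astrocyte genes, 7 (53.8%) were detected on both arrays and 2 (15.4%) were high, beside 69.3% and 17.3% of all genes. The 2 were ALDOC, a glycolytic enzyme, and NDRG2. SLC1A2, the main astrocytic glutamate transporter, GJB6, PAX2 and FGFR3 were detected on neither. ALDH1L1, a folate enzyme of astrocytes, was low at -4.27 and -4.05.

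Microglia and macrophage genes had the largest share of high members of the 14 lists of cell types. Of 22 with a probe, 21 (95.5%) were detected on both arrays and 16 (72.7%) were high. The median detected member ranked above 92.7% of detected genes, where the Müller list had 66.8%. C1QA, a subunit of the complement starter C1q, read 7.06 and 6.61 (rank 85). LAPTM5, a lysosomal membrane protein of blood cells, read 7.41 and 6.16 (rank 101). CTSS, the cathepsin of antigen-presenting cells, read 6.99 and 6.57. ITGB2, the shared chain of leukocyte integrins, read 6.73 and 6.81, with all 6 probes detected. TYROBP, an adaptor of TREM2, read 6.5 and 6.31, and CD14, the co-receptor of bacterial lipopolysaccharide, read 6.49 and 5.61. CSF1R, the receptor that macrophages need to survive, read 5.93 and 5.30, and SPI1, the transcription factor PU.1, read 5.93 and 5.66. The 2 genes used most to tell microglia from other macrophages were middle: TMEM119 at 1.51 and 2.90, and P2RY12 at 0.73 and 1.05 with all 3 probes detected. CX3CR1, the fractalkine receptor of microglia, was detected on control A alone, at -3.21. CD163 and MRC1, scavenger and mannose receptors of tissue macrophages, were middle, at 1.05 and 0.01 and at 2.33 and 3.07.

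Fibroblast and mural genes were also bright. Of 16 fibroblast genes, 15 (93.8%) were detected on both arrays and 9 (56.2%) were high. S100A4 led at 7.35 and 6.63, followed by the matrix protein FN1 at 6.04 and 6.40 with all 13 probes detected. COL1A2 read 5.87 and 6.04, and COL3A1 5.88 and 5.64 with all 10 probes detected. DCN, a small proteoglycan, read 4.60 and 4.59. PDGFRA, the growth factor receptor of fibroblasts and of retinal astrocytes, was detected with 0 of 6 probes, and LUM was low at -2.66 and -2.32. Of 14 pericyte and smooth muscle genes, 13 (92.9%) were detected on both and 8 (57.1%) were high. ACTA2, smooth muscle actin, led at 6.23 and 7.13. DES, the muscle filament desmin, read 4.91 and 4.82, and TAGLN 4.29 and 5.59. PDGFRB, the receptor that marks pericytes, was middle at 0.19 and -0.11 with all 4 probes detected.

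Genes of the remaining cell types were mostly low or undetected. For scale, 3 reference lists of tissues that a retinal culture should not hold (liver, striated muscle and testis) had 43 genes with a probe: 16 (37.2%) were detected on both arrays, 0 were high, 5 were middle and 11 were low. Photoreceptor genes were detected in 7 of 19 (36.8%) and inner retinal neuron genes in 10 of 26 (38.5%), with 0 high in either list. The 3 middle photoreceptor genes were ROM1 at 0.57 and 1.12, PDE6G at -1.58 and -0.83 and GUCA1A at -2.29 and -0.80. The cone arrestin ARR3, the cone transducin GNAT2, the rod factor NRL, the calcium sensor RCVRN and PRPH2 were detected on neither array. Among neuron genes, GRM6, GAD1, GAD2, SLC32A1, POU4F2 and NEFL were detected on neither. The 4 middle neuron genes were SLC6A9 at 2.05 and 2.41, RBPMS at 1.56 and 2.10, TFAP2A at 1.46 and 1.15 and SNAP25 at 2.26 and 0.13. SNAP25 is a synaptic vesicle docking protein.

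Endothelial genes were detected in 11 of 14 (78.6%), with 0 high and 7 low. VWF, the clotting factor carrier of endothelium, was the brightest of them at 2.24 and 1.90 with 4 of 7 probes detected, whereas CDH5, the cadherin of endothelial junctions, was detected with 0 of 3. Pigment epithelium genes were detected in 6 of 14 (42.9%). TTR, the thyroxine and retinol carrier transthyretin, was the exception at 6.49 and 6.78 (rank 127), with both probes detected. The isomerase RPE65 and the pigment enzymes TYR, TYRP1 and DCT were detected on neither array. Oligodendrocyte genes had 8 of 11 (72.7%) detected, near the 69.3% of all genes, with CNP the single high member at 5.27 and 4.83. Schwann cell genes had 4 of 7, epithelial genes 5 of 9 and erythroid genes 3 of 7 detected, and 0 were high. Of 12 lymphocyte genes, 7 (58.3%) were detected and 2 (16.7%) were high, beside 69.3% and 17.3% of all genes. The 2 were NKG7, a granule protein, at 4.25 and 6.18, and CD3D at 3.28 and 2.95 with 1 of 3 probes detected. CD3E, the companion chain of the T-cell receptor complex, was detected with 0 of 2.

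**Figure D2:**
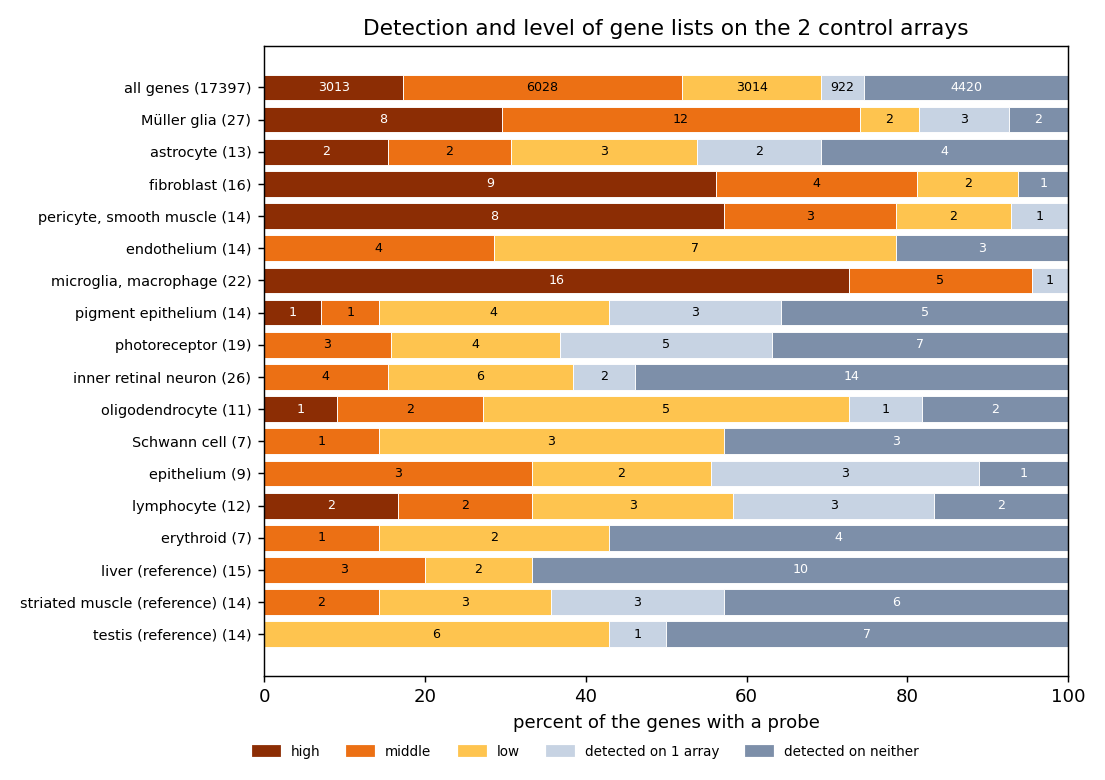
Share of the genes with a probe (number in brackets) that were high, middle, low, detected on 1 array or detected on neither, for all genes, 14 lists of cell types and 3 reference lists. Counts stand in the bars. The microglia and macrophage list has 16 high genes of 22, the Müller glia list 8 of 27 and the photoreceptor list 0 of 19.

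The brightest genes belonged to iron storage, lysosomes, ribosomes and the actin skeleton. FTH1, the heavy chain of ferritin, was first at 8.57 on control A and 7.65 on control B, and FTL, its light chain, was at rank 21. GRN, the lysosomal glycoprotein progranulin, was at rank 2 with 8.14 and 7.80, and LAMP1, a lysosomal membrane protein, was at rank 4 with 7.75 and 7.84. Others in the first 20 were the actin-binding thymosins TMSB4X and TMSB10, the ribosomal genes RPLP2, RPS27A and RPL27, TPT1, the myosin light chain MYL6, the mitochondrially encoded COX3 and the ribosomal RNA RN18S1. CTSK, a collagen-cutting cathepsin, read 7.82 and 7.18 (rank 11), CTSH 7.84 and 7.12, and the proton pump subunit ATP6V0C 7.54 and 7.45. The class I antigen-presenting chain BOLA read 7.72 and 7.20 and its partner B2M 7.43 and 7.47. BOLA stands for several near-identical genes whose transcripts the probes may not separate. Of the first 100 ranks, 36 carried the name of a ribosomal protein, 6 were among the 19 lysosome genes and 3 among the Müller list.

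Genes of translation, energy metabolism, the cytoskeleton and protein folding were nearly all detected and mostly bright. All 30 cytosolic ribosome genes and all 14 translation factors were high. Of 20 oxidative phosphorylation genes, 18 were high, and the other two, SDHB and CYCS, were middle. Glycolysis genes were all detected, with 13 of 19 high, led by ALDOA (7.33 and 6.75) and GAPDH (7.49 and 6.84). In the cytoskeleton list 27 of 28 genes were high, with ACTG1 at 7.57 and 7.10. The exception, S100A6, had 1 probe that read -7.25 and -7.81, so an undetected gene here is one whose probes gave no signal and need not lack RNA. Endoplasmic reticulum chaperones and stress genes were high in 15 of 18, with CANX at 5.78 and 6.43 and HSPA5 at 5.42 and 5.95.

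Lysosomal genes were high in 16 of 19. CTSD read 7.36 and 7.24, SCARB2 7.33 and 7.14, and CD63 7.30 and 6.80, while CTSL, a cathepsin with 1 probe, was low at -4.38 and -5.03. Antioxidant genes were high in 15 of 24, led after ferritin by HMOX1, the haem-degrading enzyme, at 7.05 and 6.77 and by GPX1 at 6.31 and 5.95. SLC7A11, the cystine carrier, was detected on 1 array only. Cholesterol synthesis genes were all detected, with 7 of 17 high and SREBF2 the brightest at 4.99 and 5.24.

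Matrix genes were detected in all 30 with a probe and high in 21 (70.0%). COL6A1 read 6.01 and 6.60, SPARC 6.04 and 6.69, and TNC, a glycoprotein of wounds and development, 6.21 and 6.52. Among 16 proteases and inhibitors 7 (43.8%) were high, beside 17.3% of all genes. MMP9, a gelatinase of macrophages and reactive tissue, read 7.55 and 7.04 (rank 30). TIMP2, a metalloproteinase inhibitor, read 7.46 and 6.91. PLAU, the urokinase activator of plasmin, read 6.51 and 5.46. MMP13 was detected with 0 of 3 probes.

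Genes of glutamate, ion and water handling were high in 5 of 24 (20.8%) and detected in 17 (70.8%). Both shares were near those over all genes, 17.3% and 69.3%. The high members were GLUL, the sodium pump chains ATP1B3 and ATP1B1, SLC38A2 and SLC1A5, carriers of neutral amino acids that many cells have. The glutamate transporters SLC1A1 and SLC1A2 were detected on neither array. Retinoid genes were high in 3 of 16 (18.8%), near the 17.3% of all genes. These were DEGS1 (5.08 and 5.18), an isomerase and desaturase, the retinol carrier RBP4 (5.28 and 3.34) and ALDH1A1 (3.87 and 2.38). The visual cycle gene LRAT was low at -3.71 and -3.45. Of 19 glial and retinal transcription factors, 15 (78.9%) were detected, beside 69.3% of all genes. Only ID2 was high, at 3.58 and 3.34. Reactive gliosis genes were high in 9 of 18, namely VIM, SPP1, HSPB1, TIMP1, FGF2, NES, S100A10, CHI3L1 and CD44. SPP1, osteopontin, read 7.33 and 6.61, and NES, the filament nestin of progenitor and reactive cells, read 3.48 and 4.88.

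Immune genes ranged from bright to undetected. Of 14 class I genes, 10 (71.4%) were high, and of 9 class II genes with a probe 2 (22.2%) were high, beside 17.3% of all genes. The 2 were the antigen-presenting chains BOLA-DRA at 4.41 and 4.13 and BOLA-DQB at 3.04 and 2.67. Detection of class II genes, 6 of 9 (66.7%), was near the 69.3% of all genes. All 36 interferon-response genes were detected and 15 (41.7%) were high, beside 69.3% and 17.3% of all genes. IFI6 led at 7.36 and 6.74, followed by OAS1Y at 5.74 and 5.32 and MX1 at 5.70 and 4.39. Of 26 cytokine genes 21 (80.8%) were detected and 6 (23.1%) were high, beside 69.3% and 17.3% of all genes. CCL2, the monocyte attractant, read 6.86 and 5.73, CXCL16 6.28 and 6.27, and CCL8 5.67 and 3.85. IL33, LIF, CSF2 and CSF3 were detected on neither array. Complement genes were high in 8 of 23 (34.8%), with C1QA and CLU brightest. C5, C6 and C8A, the terminal components, were detected on neither array.

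Genes that the HIV-1 proteins are known to meet on or in cells were detected in 15 of 18 (83.3%), beside 69.3% of all genes. CXCR4, a co-receptor of gp120, was high at 4.00 and 3.48. CD4, its main receptor, was middle at 0.35 and 0.05 with 1 of 5 probes detected. The integrin chains ITGB1 (5.89 and 5.82) and ITGAV (4.32 and 4.57), the kinase CDK9 (5.11 and 5.09) and the pattern receptor TLR2 (7.0 and 5.53) were high. CCNT1, the cyclin that TAT binds together with CDK9, was detected on 1 array only. Of 27 growth factor genes 2 (7.4%) were high, beside 17.3% of all genes. They were CCN2, connective tissue growth factor, at 6.14 and 5.45, and FGF2 at 5.65 and 4.66 with 2 of 5 probes detected. VEGFA, the vascular growth factor of retinal glia, was low at -1.72 and -1.54.

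Signalling and adhesion genes were mixed. Of 25 Notch and Wnt genes, 20 were detected and 5 were high: the receptors NOTCH1, NOTCH2 and NOTCH3, the Wnt effector CTNNB1 and the secreted glycoprotein DKK3. NOTCH2 read 5.39 and 5.41, whereas HES1, a target of Notch in glia, was middle at -1.51 and -1.13, and the ligands WNT5A and WNT5B were detected on neither array. Of 21 junction genes, 17 (81.0%) were detected and 14.3% were high, beside 69.3% and 17.3% of all genes. The high members were the catenins CTNNB1 (4.71 and 4.40), CTNNA1 (4.26 and 5.13) and CTNND1 (2.63 and 3.31). CDH2, the cadherin of glia and neurons, was middle at 0.93 and 1.17, and GJA1, the gap junction protein connexin 43, was low at -3.14 and -1.68. The tight junction genes OCLN and CLDN3 were detected on neither array. Genes of the insulin-like growth factor system were high in 5 of 9 (55.6%), led by IGFBP7 at 6.23 and 5.92. Of 29 cell cycle genes, 28 (96.6%) were detected and 5 (17.2%) were high, beside 69.3% and 17.3% of all genes. The 5 were PCNA, TYMS, RRM1, MCM4 and MCM7, which serve DNA synthesis. A further 16 were middle, such as the mitotic kinase PLK1 at 1.71 and 2.51, and 7 were low, such as MKI67 and the replication factor CDC6 at -3.73 and -3.65.

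How bright a gene looked depended on where its probe lay. The RNA was primed with oligo dT at the 3′ end, per the labels' protocol. Of 8957 detected genes with more than 1 probe, the median gap between brightest and dimmest probe was 3.90, and 36.8% had a probe that was not detected on both arrays. In 2575 genes with detected probes 1000 bases or more apart, the probe nearest the 3′ end exceeded that nearest the 5′ end by a median of 3.91 on control A and 3.99 on control B. GLUL rose along its transcript from -1.05 at base 451 to 6.34 at base 2598 on control A, and from -1.09 to 6.09 on control B. PTPRC rose from -2.75 at base 1433 to 4.56 at base 4042 on control A. The last probe of RLBP1, at base 1450, read -5.59 and -6.96 and was not well above background, and that of KCNJ10, at base 5089, read -7.08 and -5.67, likewise. The last probe of GFAP, at base 2766, read -7.23 and -4.37 and was detected on control B. With the median probe in place of the brightest, 1689 of 2536 high genes with several probes lay below the high limit. That limit was set on brightest probes, so a part of this drop is built in. Ranked anew by the median probe, the microglia and macrophage list had 17 high genes in place of 16 and the Müller list 10 in place of 8. The fibroblast list had 7 in place of 9 and the mural list 4 in place of 8.

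**Figure D3:**
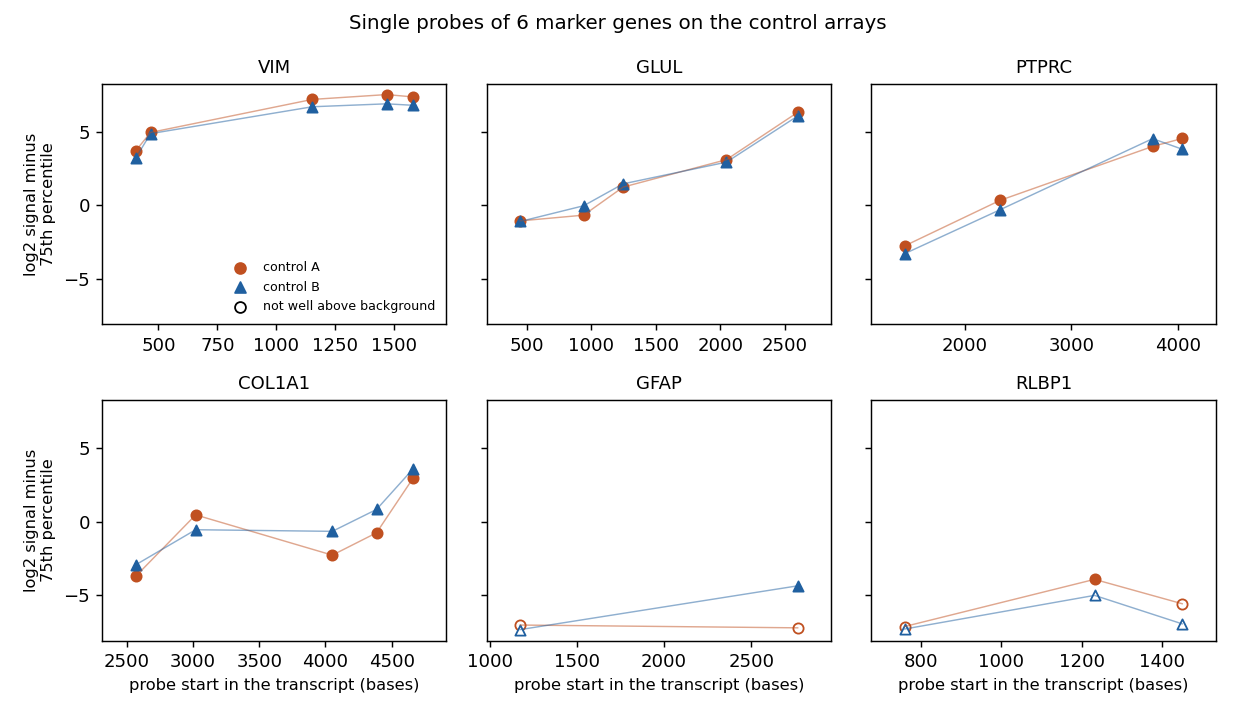
Level of each single probe (log2 signal minus the 75th percentile) against its start in the transcript in bases, as the files give it, for VIM, GLUL, PTPRC, COL1A1, GFAP and RLBP1 on control A (circles) and control B (triangles). Open symbols were not well above background. GLUL and PTPRC climb towards the 3′ end on both arrays, and 3 of the 4 GFAP readings and 5 of the 6 RLBP1 readings are open.

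The 2 control arrays differed from each other in a part of their genes, and with 1 array per letter these differences are values without a test. Over the 12055 detected genes the median of control A minus control B was 0.023, the median absolute difference was 0.38, and 95% lay between -1.59 and 1.57. Control A was at least 2-fold higher for 807 genes (6.69%) and control B for 804 (6.67%). Spots of 1 probe repeated on the same array were compared where all of them were well above background. This held for 4838 of 10264 repeated probes on control A and 4912 of 10269 on control B. Their median SD was 0.098 on control A and 0.077 on control B, and 95% of them had an SD under 0.391 and 0.375. Repeated probes with no spot well above background had a median SD of 0.151 and 0.155. A 2-fold difference is a step of 1 and larger than these spreads between spots, which do not cover the spread between cultures.

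Inflammatory genes were higher on control A. SAA3, an acute-phase protein, read 5.13 on control A and 1.14 on control B. S100A8 and S100A9, the chains of calprotectin in myeloid cells, read 6.31 and 2.43, and 5.48 and 1.65. Of the 21 cytokine genes detected, 9 were at least 2-fold higher on control A and 3 on control B, with a list median of 0.79. CCL5 read 5.37 and 2.47, IL6 0.91 and -1.94, CXCL2 2.43 and -0.25, IL1B 3.28 and 0.80, and CXCL5 5.68 and 3.23. CXCL16 at 6.28 and 6.27 and CXCL10 at 1.31 and 1.24 were level. Of the 36 interferon-response genes 33 were higher on control A, 15 of them at least 2-fold and 0 at least 2-fold higher on control B, and the median was 0.93. IFIT3 read 0.96 and -1.77, and RSAD2, viperin, 0.32 and -2.04, whereas STAT2 (2.0 and 2.22) and IFI27 (4.00 and 4.08) were not higher on control A.

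Pericyte and smooth muscle genes and cell cycle genes were higher on control B. SHISA3 read -3.04 on control A and 2.27 on control B, and TGFB3, a transforming growth factor, -1.20 and 3.94. Of 13 detected pericyte and smooth muscle genes, 10 were at least 2-fold higher on control B and 0 on control A, and the median was -1.42. RGS5, a signalling regulator of pericytes, read -4.08 and -0.04, CNN1, calponin of smooth muscle, 1.77 and 5.47, MYH11, smooth muscle myosin, -1.22 and 2.44, and NOTCH3, the mural Notch receptor, 1.89 and 4.76. DES and PDGFRB differed by less than 2-fold. The wider cytoskeleton list did not share this: its median was 0.10, 15 of 27 genes were higher on control A, and 3 were at least 2-fold higher on control B. Of 28 detected cell cycle genes, 12 were at least 2-fold higher on control B and 0 on control A, with a median of -0.84. KIF20A read -2.37 and 0.63, the mitotic cyclin CCNB1 -1.98 and 0.77, and MKI67, the Ki-67 antigen, -4.39 and -2.78. Of the others, TYMS (3.63 and 3.45) and MCM6 (0.94 and 0.91) alone were higher on control A, and MCM4 (2.61 and 3.41) and PLK1 (1.71 and 2.51) were among those higher on control B by less than 2-fold. IGFBP6 and IGFBP4, binders of insulin-like growth factors, were also higher on control B, at 4.15 and 6.26 and at 4.53 and 6.13.

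Cell type lists that were not of mural cells lay nearer to 0 than the mural median of -1.42. The furthest of them was the photoreceptor list at -0.74. Of its 7 detected genes, 3 were at least 2-fold higher on control B and 1 on control A. The 10 detected inner retinal neuron genes had a median of -0.44. The median of control A minus control B was 0.07 for 22 Müller genes and -0.21 for 15 fibroblast genes. It was 0.42 for 21 microglia and macrophage genes, and -0.01 after quantile scaling, so no direction is given for that list. The part that the amount of mural or immune cells had in the other differences was not tested. All 30 ribosome genes were higher on control A with a median of 0.63, which was 0.16 after quantile scaling. For the cytokine, interferon, cell cycle and mural lists the sign was the same under the 6 other ways of processing: the medians ran from 0.71 to 0.81, 0.66 to 0.93, -0.91 to -0.57 and -1.59 to -1.37.

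Whether the same genes differ between letters A and B was looked at in the 6 treated arrays, which played no part in the ranking. A limma model with protein and letter as terms gave letter A minus letter B for 12048 genes with 2 residual degrees of freedom. At an adjusted p under 0.05, 379 genes (3.15%) were called higher in letter A and 350 (2.91%) higher in letter B, and 3349 had an unadjusted p under 0.05. These counts depended on the processing: they were 174 and 158 with scan as a covariate, 60 and 62 without the detection filter, 719 and 697 after normexp background correction, 230 and 212 with the median probe, and 0 and 0 by limma on the deposited table of processed values, where 2505 genes had an unadjusted p under 0.05. Of the 805 tested genes that were at least 2-fold higher on control A, 221 (27.5%) were called higher in letter A and 2 were called lower, and 701 (87.1%) had the same sign, beside 50.2% of all genes. The 221 became 127 with scan as a covariate, 36 without the filter and 0 in the deposited table, although 658 of 798 had the same sign with the deposited values. Of the 804 that were at least 2-fold higher on control B, 253 (31.5%) were called higher in letter B and 4 the other way, and 744 (92.5%) had the same sign. The 253 became 125, 35 and 0 under those alternatives, although 704 of 799 had the same sign with the deposited values. All treated arrays of letter A lay in row 1 of the slide and those of letter B in row 2, so letter and row cannot be told apart in these arrays. In the gp120 pair the letters also differ in scan: gp120 replicate A was read at a detector voltage of 431 with the other arrays, and replicates B and C in another scan at 471. The 2 control arrays lay in the same row.

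Several inflammatory genes had the same direction in the treated arrays. SAA3 was higher in letter A of the treated arrays by 3.71 (SE 0.22, limma adjusted p = 0.00863) and S100A8 by 4.96 (SE 0.56, limma adjusted p = 0.0202), each in both pairs of arrays. Of the 21 cytokine genes, 9 were called higher in letter A (IL1B, TNF, CSF1, CCL5, CCL8, CXCL2, CXCL3, CXCL5 and CXCL8), and TGFB3 alone was called higher in letter B. IL1B differed by 3.28 (SE 0.24) and CXCL8, a neutrophil attractant, by 3.63 (SE 0.29). IL6 at 3.92 (SE 1.12) did not pass, with a limma adjusted p of 0.105, and CCL2 gave 0.04 (SE 0.48). Of 36 interferon genes 31 had positive signs with a median of 0.47, but 2 were called, RSAD2 and GBP4, and the 3 probes of GBP4 did not share a sign on the control arrays. MX1 gave 0.61 (SE 0.21, limma adjusted p = 0.145). Other genes had the opposite sign to the controls without passing the test. The ribosome genes, all higher on control A, had a treated median of -0.29, with 28 of 30 signs on the side of letter B and 0 called. FTH1 gave -0.34 (SE 0.20), VIM -0.15 (SE 0.19) and ALDH1A1 -0.36 (SE 0.77), where control A had been the higher of the 2 controls.

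Mural and cell cycle genes were again higher in letter B. TAGLN, CNN1, MYH11, RGS5, NOTCH3 and KCNJ8 were called among the 13 pericyte and smooth muscle genes, of which 12 had negative signs. MYH11 differed by -3.80 (SE 0.22, limma adjusted p = 0.00863). Of 28 cell cycle genes 27 had negative signs, with a median of -0.76, and 8 were called: MKI67, TOP2A, CCNA2, CCNB1, CDC20, BUB1B, KIF11 and KIF20A. KIF20A differed by -2.85 (SE 0.30). The number of calls depended on single arrays. It was 44 in letter A and 51 in letter B without gp120 replicate B, 117 and 128 without TAT replicate B, 152 and 137 without either C array, 174 and 158 without gp120 replicate A, and 442 and 328 without TAT replicate A.

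**Figure D4:**
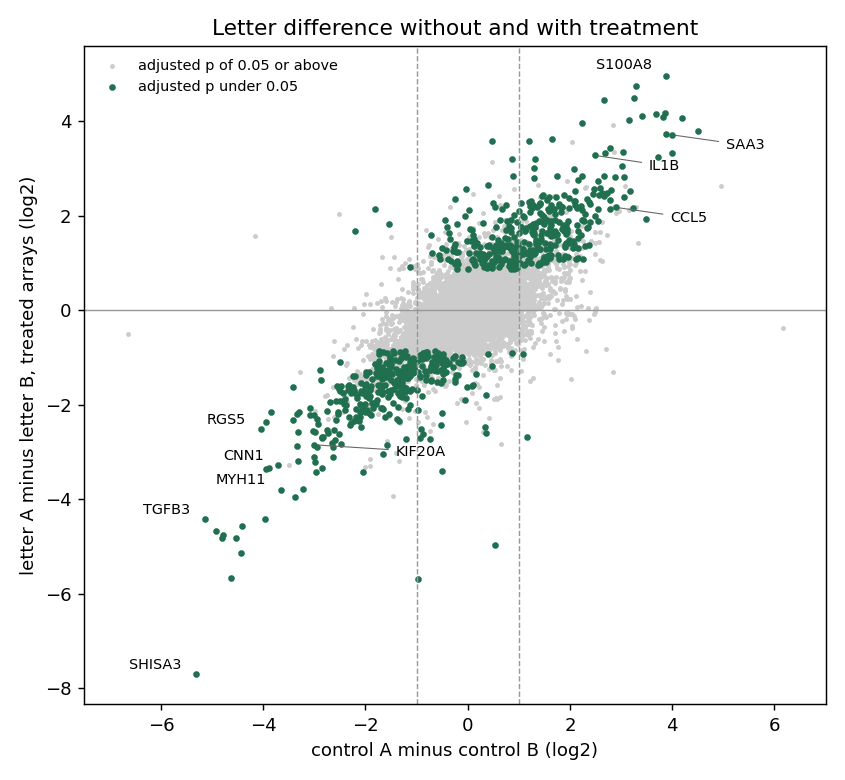
Control A minus control B (log2, horizontal) against letter A minus letter B in the treated arrays (log2, vertical, from the limma model) for 12048 genes, with genes at an adjusted p under 0.05 in green and dashed lines at 2-fold. Of the called genes beyond the dashed lines, 221 lie at the upper right, 253 at the lower left and 6 in the opposite corners.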

How the data were processed

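Total RNA of each sample was labelled with Cy3 after oligo dT priming and hybridised to 1 array, per the labels' protocols. The unit of the deposited scanner files is intensity. Per the file headers, Agilent Feature Extraction 11.5.1.1 removed background there and replaced readings near it by surrogates. The deposited table of processed values is on a log2 scale. The sources used here do not give how it was made. It served as an alternative (r of 0.9742 and 0.9758 with the mean over the probes of a name on the control arrays, not with the brightest probe). Control spots and outlier spots (37 and 23) were left out, and repeated spots were averaged. Against a bovine RefSeq gene table, 29884 of 51282 probes were named by accession, 5526 by symbol, 1222 by description, 159 by synonym and 561 by the file alone, which left 13930 without a name. The 43 gene lists held 759 genes, 25 of them with no named probe. The members and lists were chosen with earlier results of these data known. Named genes are the 8 markers, the 20 brightest, up to 4 brightest and 4 undetected members of each list, the 10 largest differences in each direction and list members past 2-fold; a few more list members are given for context, and not all that qualify are printed. For the letters, lmFit and eBayes of limma (3.58.1, R 4.3.3) were used with Benjamini-Hochberg adjustment, two-sided, after the script was tested on simulated data. The alternatives were other detection flags, probe choices, scalings, normexp and left-out arrays. Python (3.11.15) ran pandas (2.3.3), numpy (2.4.6) and matplotlib (3.10.9). The number of arrays limits the precision. Some genes and sequences are not reported here.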

Additional observations from a re-analysis of the deposited data

Results flagged for a closer look

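The 6 genes listed here were at least 2-fold apart on the control arrays in one direction and were called in the other direction in the treated arrays, with both the TAT and the gp120 pair on that side. The difference between control and treated arrays was not itself tested. Control A minus control B was 1.16 for CRTAC1, a cartilage matrix protein, and 1.09 for LOC618686. It was -2.2 for CYSLTR2, a leukotriene receptor, -1.82 for EML2, -1.55 for TNRC6B, a protein of microRNA silencing, and -1.12 for XPR1, a phosphate exporter. In the treated arrays the limma estimate of letter A minus letter B was -2.68 (SE 0.41) for CRTAC1, -0.92 (SE 0.16) for LOC618686, 1.68 (SE 0.20) for CYSLTR2, 2.14 (SE 0.32) for EML2, 1.83 (SE 0.16) for TNRC6B and 0.91 (SE 0.17) for XPR1. CRTAC1, LOC618686, CYSLTR2, EML2 and XPR1 were dim on both control arrays, at -5.21 to -2.15, and TNRC6B read 1.17 and 2.71.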

How the results depend on the processing

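No paired analysis was possible because the letters are themselves what is compared, and the fit already holds the protein as a term. The 5 other ways of counting detected genes stayed within 1.5 times of 12055. With the top 50% called high, the Müller list had 14 high genes and the photoreceptor list 1; with the top 10%, the fibroblast list had 5 and the mural list 3, and with the median probe the mural list had 4 (5 to 9 with a single control array). Genes at least 2-fold higher on control A and on control B numbered 339 and 392 after normexp (offset 50), 1728 and 1369 without the detection filter, 1955 and 1911 at a fold of 1.5, and 144 and 150 at a fold of 4. Quantile scaling gave medians of -0.01 for the microglia and macrophage list and 0.16 for the ribosome list, and normexp -0.57 for the cell cycle and 0.66 for the interferon list. Genes called higher in letter A and in letter B numbered 174 and 158 with scan as a covariate (the same arrays as without gp120 replicate A), 719 and 697 after normexp, 60 and 62 without the detection filter, 230 and 212 with the median probe, and 0 and 0 by limma on the deposited table, where 2505 genes had an unadjusted p under 0.05. Of the genes 2-fold higher on control A, the calls in letter A were 127 with scan, 339 after normexp, 36 without the filter, 146 with the median probe and 0 in the deposited table; for control B and letter B they were 125 with scan, 35 without the filter, 158 with the median probe and 0. Leaving out 1 treated array gave 44 to 442 and 51 to 328 calls, and 37 to 227 and 44 to 233 among those genes. The cause of these changes was not tested. Levels of the 8 markers moved by more than their spread between the arrays in 34 of 40 alternatives. This count includes median scaling and the 75th percentile over detected probes, which only move the zero point of an array. VIM, for example, went from 7.24 to 10.6 and 5.41 with these. Such moves leave the order of the genes as it was, so for these settings the count overstates the dependence on processing. Other alternatives can change the order. With the deposited table COL1A1 went from 3.29 to -0.03, GLUL from 6.22 to 2.14 and PTPRC from 4.28 to 1.64. SLC1A3 went from 2.66 to 2.09 and VIM from 7.24 to 6.23. CD68 went from 6.1 to 5.93, GFAP from -5.8 to -5.57 and RLBP1 from -4.47 to -4.33.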

Other observations

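A few bright genes outside the lists are given here as values, chosen after their values were seen, so they stand for no theme. GPNMB, a lysosomal glycoprotein, read 7.26 on control A and 6.37 on control B (rank 92). FABP4, a fatty acid binding protein of fat cells and macrophages, read 6.31 and 7.12 (rank 113). FOLR2, a folate receptor of resident macrophages, read 6.77 and 6.40 (rank 138). ACP5, the tartrate-resistant acid phosphatase, read 6.56 and 6.36 with 4 probes (rank 160). LIPA, the lysosomal lipase, and LGMN, an endopeptidase, read 6.92 and 6.72 and 7.15 and 6.69. LGALS3 read 6.85 and 6.42, and S100A12, a myeloid calcium-binding protein, 7.32 and 5.96. Bright genes of other kinds included SFN, the epithelial 14-3-3 protein, at 6.64 and 7.32 (rank 69) and the transcription factor KLF13 at 7.14 and 7.16 (rank 50).

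Of the 13930 probes without a gene name, 5894 (42.3%) were detected on both control arrays, beside 65.0% of named probes, and 578 of them lay at or above the high limit.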
